A study of Mus musculus with 8 samples.

Results

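The Hedgehog pathway components described here are 9 genes: the ligand-binding proteins Ptch1 and Hhip, the co-receptors Boc, Cdon and Gas1, the signal transducer Smo, and the transcription factors Gli1, Gli2 and Gli3. They were taken by symbol from a table of 17967 gene symbols, and 9 of 9 were listed and had enough counts to be tested. The table came from bulk RNA sequencing of adipose-derived stem cells, progenitors from which fat cells form, sorted by flow cytometry after collagenase digestion. All mice were male C57BL/6J wild type on a chow diet, with no further allele or agent named, and neither their age nor the antigens of the sort is given in the sources used here. The groups compared were subcutaneous inguinal (SWAT), epididymal (EWAT) and perirenal (NWAT) white fat, with 2 libraries each and 20026413 to 20638724 estimated counts per library. Mesenteric fat was not analysed here. Whether the 2 libraries of a depot derive from different mice is not stated, and p-values therefore measure only the spread between these libraries, which may be technical.

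Hedgehog signalling is switched on when a secreted ligand binds Ptch1, which otherwise holds the membrane protein Smo inactive. Boc, Cdon and Gas1 are cell-surface proteins that help Ptch1 bind the ligand, and Hhip is a membrane protein that captures ligand without signalling. Active Smo gathers in the primary cilium and changes the processing of Gli2 and Gli3, and the genes Gli1, Ptch1 and Hhip are themselves classical targets of the pathway. In fat, Hedgehog activity is known for holding back the differentiation of white adipocyte progenitors.

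Of the 9 genes, Boc was highest in EWAT, where it stood 2.81-fold above SWAT and 2.15-fold above NWAT. Cdon was highest in NWAT and lowest in EWAT, with NWAT 2.11-fold above EWAT and 1.57-fold above SWAT. Hhip was highest in SWAT, 5.85-fold above EWAT and 3.88-fold above NWAT, though at low levels. Ptch1 and Gli3 passed the test in none of the 3 pairs of depots, and the differences of Smo, Gas1, Gli1 and Gli2 that passed had adjusted p-values of 0.0198 to 0.0494, beside a threshold that was a Benjamini-Hochberg adjusted p of 0.05 in edgeR's quasi-likelihood test.

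**Figure D1:**
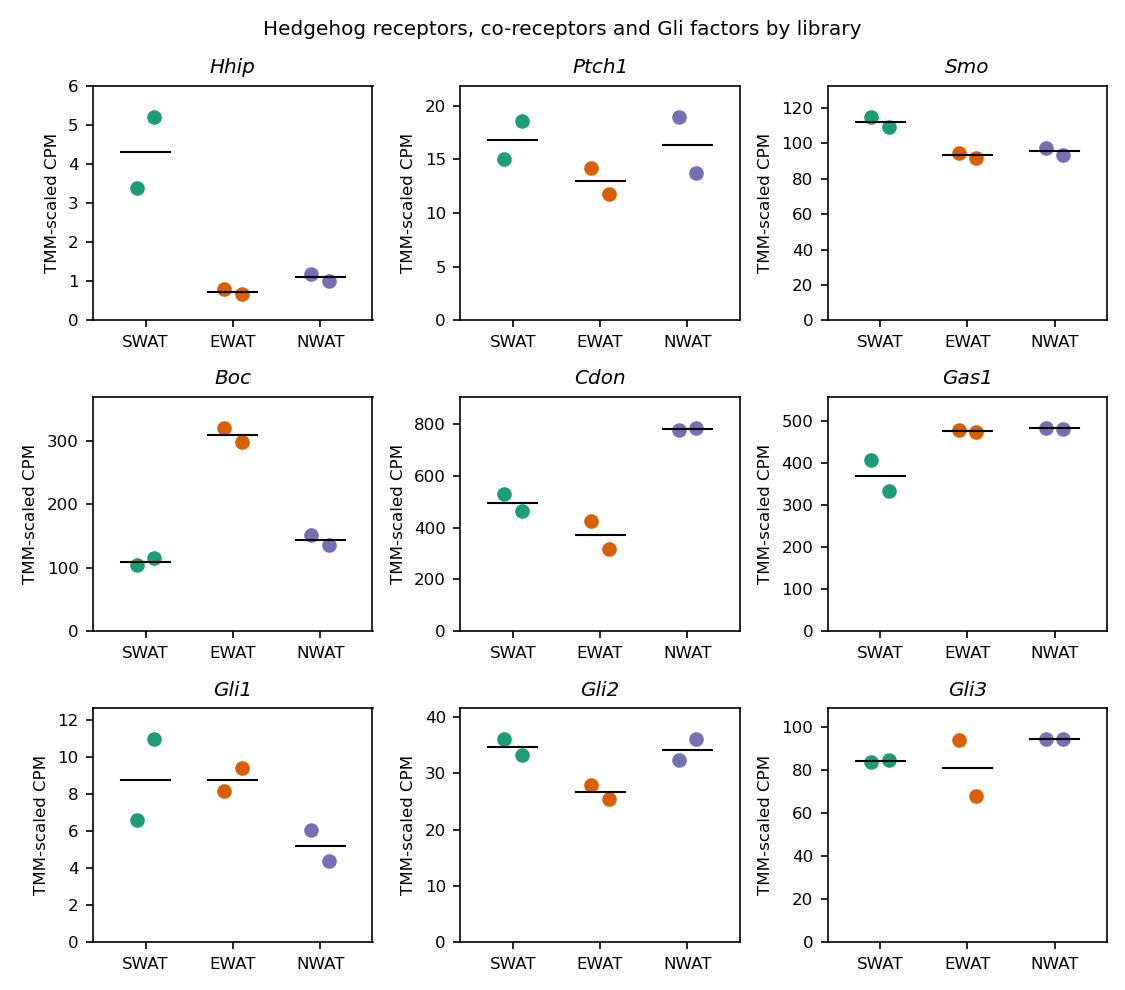
Level of each of the 9 genes in each library, in CPM scaled by TMM factors (linear axes from 0), with 1 point per library and a line at the mean of 2. The EWAT points of Boc, the NWAT points of Cdon and the SWAT points of Hhip stand clear of the other depots.

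By level, expressed per gene length as FPKM, the co-receptors stood at the top and the pathway's own target genes at the bottom. Averaged over the 6 libraries, Gas1 had 143 FPKM, Cdon 78.6, Boc 43.4, Smo 27.3, Gli3 11, Gli2 4.73, Ptch1 2.48, Gli1 2.06 and Hhip 0.275. Gas1 lay above 97.0% of the tested genes and Hhip above 6.41%. The order changed between depots at 3 places. In EWAT Boc (72.5 and 75.9 FPKM) lay above Cdon (48.2 and 63.7 FPKM), whereas in the other depots Cdon lay above Boc. In SWAT Smo (26.9 and 27.8 FPKM) lay above Boc (21.1 and 23.8 FPKM). Ptch1 and Gli1 were neighbours. Their ranges overlapped in SWAT, but within both SWAT libraries Ptch1 was above Gli1. Ptch1 had 2.13 against 1.60 FPKM in replicate 1 and 3.01 against 2.76 FPKM in replicate 2. In EWAT Gli1 was above Ptch1 in both libraries, and in NWAT it was below in both.

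Of the 9 genes, 6 passed the joint test for a difference among the 3 depots, against 41.7% of the 13694 genes tested. In SWAT against EWAT 6 passed, against 36.7% of genes, with 4 higher in SWAT (18.0% of genes) and 2 lower (18.7%), but 1 higher and 2 lower without TMM scaling or on log2 FPKM values. In SWAT against NWAT 4 passed, against 18.9%, with 1 higher in SWAT (9.07%) and 3 lower (9.83%). In EWAT against NWAT 4 passed, against 27.3%, with 2 higher in EWAT (13.3%) and 2 lower (14.0%). A single depot stood apart from both others for 5 genes. Hhip was higher in SWAT (6.21% of genes), Boc and Gas1 were lower in SWAT (5.88%), Boc was higher in EWAT (9.02%), Gli2 and Cdon were lower in EWAT (8.57%), Cdon was higher in NWAT (3.42%), and none of the 9 was lower in NWAT (2.35%). The median size of the log2 fold change over the 9 genes was 0.37, 0.38 and 0.36 in these pairs, beside 0.32, 0.22 and 0.27 over all genes. The 3 pairs share libraries and are not independent of each other. Leaving out 1 library at a time gave 2 to 7 genes past the threshold in SWAT against EWAT (2 without SWAT replicate 2 or EWAT replicate 2, and 3 without SWAT replicate 1 or either NWAT library). It gave 1 to 5 in SWAT against NWAT (1 without SWAT replicate 2 or NWAT replicate 2, and 2 without NWAT replicate 1) and 2 to 4 in EWAT against NWAT (2 without EWAT replicate 2 or either NWAT library). In the joint test it gave 3 to 7, with 3 without NWAT replicate 2.

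**Figure D2:**
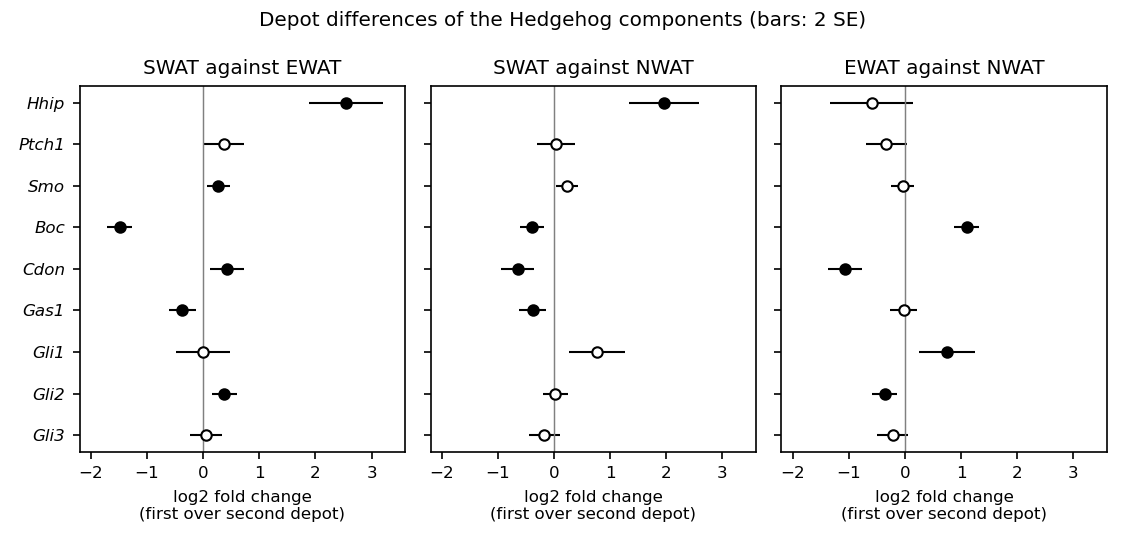
Log2 fold change of each gene between 2 depots (x axis, first depot over second; bars are 2 standard errors), with filled points for an adjusted p under 0.05. Boc and Cdon lie on opposite sides of 0 in both pairs that involve EWAT, and Hhip has the longest distance from 0 in both pairs that involve SWAT.

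The 3 ligands were close to absent from the sorted cells. Shh had 1 count in NWAT replicate 1 and 0 in each of the other 5 libraries, and a count of 0 allows a level of up to 0.135 to 0.165 CPM per library (3 counts). Ihh had 3 to 6 counts per library, and Dhh, the ligand made by Schwann cells in nerves, had 0 to 10. None of the 3 had enough counts for a test. Epithelial cells, a common source of Shh, were scarcely represented, since 6 markers fixed for them summed to 0.110 to 1.67 CPM per library.

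Boc codes for an immunoglobulin and fibronectin repeat protein of the cell surface that binds both ligand and Ptch1. It stood at 105 and 115 CPM in SWAT, 321 and 299 CPM in EWAT and 152 and 136 CPM in NWAT. Both EWAT libraries were above the other 4, and the SWAT libraries were the lowest. The log2 fold change was -1.49 ± 0.11 (SE) in SWAT against EWAT (edgeR adjusted p = 1.20e-06), 1.10 ± 0.11 in EWAT against NWAT (2.25e-05) and -0.39 ± 0.11 in SWAT against NWAT (0.0300). The differences from EWAT passed in 16 of 16 alternative analyses. The smaller one between SWAT and NWAT was lost when SWAT replicate 1 (-0.32), SWAT replicate 2 (-0.45), NWAT replicate 1 (-0.31) or NWAT replicate 2 (-0.46) was left out. In bulk libraries, fewer cells with a transcript and less of it per cell cannot be told apart, for this gene and for those that follow.

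Of 6 markers of mural cells, the contractile cells of vessel walls, 4 were also higher in EWAT than in both other depots. The 6 markers were all detected in each depot and summed to 148 and 149 CPM in EWAT, 51.9 and 68.5 CPM in SWAT and 38.4 and 43.1 CPM in NWAT. Most of the EWAT sum was Des (90.9 and 95.8 CPM), and the pericyte marker Rgs5 had 7.10 and 7.28 CPM there, against 2.43 to 3.58 CPM elsewhere. Notch3 went the other way, with 34.7 and 50.2 CPM in SWAT against 14.4 and 12.0 CPM in EWAT, and Cspg4 was lowest in EWAT (2.19 and 2.02 CPM). None of the 6 was at 0. Their part in the result for Boc was not tested.

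Cdon, the paralogue of Boc with the same kind of extracellular repeats, was lowest in the depot where Boc was highest, while both genes were lower in SWAT than in NWAT. It stood at 528 and 464 CPM in SWAT, 425 and 316 CPM in EWAT and 776 and 785 CPM in NWAT, so that the 3 depots did not overlap. The log2 fold change was -1.07 ± 0.15 in EWAT against NWAT (edgeR adjusted p = 2.29e-04), -0.65 ± 0.15 in SWAT against NWAT (0.00803) and 0.42 ± 0.15 in SWAT against EWAT (0.0405). The difference between EWAT and NWAT passed in 16 of 16 alternatives and that between SWAT and NWAT in 14, being lost without SWAT replicate 2 (-0.56) or NWAT replicate 2 (-0.64). The difference between SWAT and EWAT passed in 6 of 16. It was lost without SWAT replicate 1 (0.32), SWAT replicate 2 (0.51), EWAT replicate 2 (0.23), NWAT replicate 1 (0.42) or NWAT replicate 2 (0.42), and it was 0.19 without TMM scaling.

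Summed endothelial markers had the same order as Cdon, but Tek gave most of the sum and other markers differed. All 6 were detected in each depot, none was at 0, and they summed to 346 and 367 CPM in NWAT, 245 and 280 CPM in SWAT and 198 and 233 CPM in EWAT. Tek alone gave 178 to 355 CPM of this, while Pecam1, the general endothelial marker, had 3.96 and 4.12 CPM in NWAT and 5.18 to 8.63 CPM in the other depots. Cdh5, Kdr and Vwf were lower in NWAT than in SWAT (edgeR adjusted p = 0.00945, 0.0279 and 0.00666), the reverse of Cdon. Tek was higher in NWAT than in SWAT (0.0164), and Pecam1 (0.193) and Emcn (0.737) did not pass. The part of these cells in the result for Cdon was not tested.

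Gas1 codes for a lipid-anchored surface protein that joins Boc and Cdon in presenting ligand. It stood at 407 and 333 CPM in SWAT, 480 and 475 CPM in EWAT and 485 and 481 CPM in NWAT. Both SWAT libraries lay below the other 4, and EWAT and NWAT differed by a log2 fold change of -0.02 ± 0.12 (2 SE interval -0.26 to 0.23). The log2 fold change was -0.37 ± 0.12 against EWAT (edgeR adjusted p = 0.0344) and -0.38 ± 0.12 against NWAT (0.0473). Without SWAT replicate 2, the lower of the 2 libraries, these became -0.23 and -0.25 and no longer passed. The call against EWAT was also lost without EWAT replicate 2 (-0.36), NWAT replicate 1 (-0.37) or NWAT replicate 2 (-0.37), and the call against NWAT without NWAT replicate 1 (-0.38) or NWAT replicate 2 (-0.39) and with DESeq2's size factors (-0.37, edgeR adjusted p = 0.0518). Without TMM scaling the values were -0.61 and -0.58.

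The make-up of the 3 co-receptors can be given as shares of their summed FPKM, for which no test was run. Boc made up 25.4% ± 0.20 of the sum in EWAT, 11.6% ± 1.88 in SWAT and 10.9% ± 0.762 in NWAT (each SD over n = 2). Cdon made up 19.1% ± 2.97, 33.4% ± 0.503 and 37.4% ± 0.616 in the same order. Gas1 held 51.7% to 55.5% in each depot and was the most abundant of the 3 in 6 of 6 libraries.

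**Figure D3:**
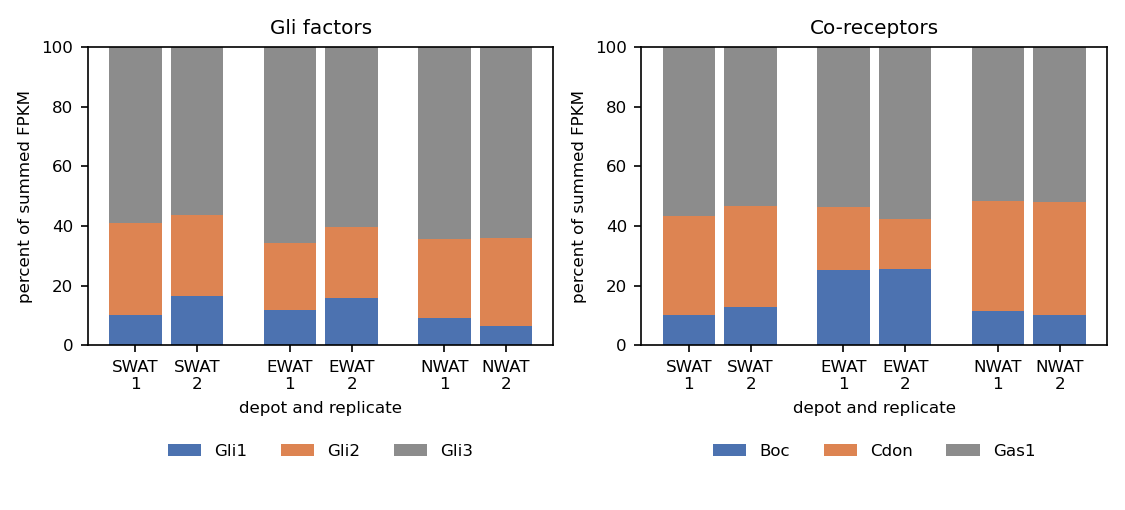
Shares of the summed FPKM held by each Gli factor (left) and each co-receptor (right), with 1 stacked bar per library and depots side by side. The Boc share of 25.3% and 25.5% in the EWAT libraries lies above the 10.3% to 13.0% of the other 4, and Gli3 holds over 56% of the Gli signal in each library.

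Hhip, the decoy that binds ligand at the cell surface, had the largest fold difference of the 9 genes and the lowest level. SWAT had 62 and 99 counts (3.4 and 5.22 CPM), EWAT had 17 and 15 (0.794 and 0.674 CPM), and NWAT had 25 and 21 (1.19 and 1.02 CPM). Both SWAT libraries lay above the other 4 and differed from each other by more than the EWAT and NWAT libraries did. The log2 fold change was 2.55 ± 0.33 in SWAT against EWAT (edgeR adjusted p = 1.04e-04) and 1.96 ± 0.31 in SWAT against NWAT (9.41e-04). In EWAT against NWAT it was -0.59 ± 0.37 (0.268; 2 SE interval -1.34 to 0.16). The calls in SWAT passed in 15 of 15 alternatives, with values of 0.54 and 0.43 on the log2(FPKM + 1) scale, where a pseudocount of 1 exceeds the gene's level.

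Summed markers of Schwann cells were highest in the same depot as Hhip. In SWAT 6 of 6 were detected, with sums of 39.8 and 48.9 CPM, against 5 of 6 with 11.4 and 13.1 CPM in EWAT and 5 of 6 with 20.5 and 24.3 CPM in NWAT, where Sox10 was at 0. Sox10, the defining transcription factor of these cells, reached at most 0.110 CPM in any library. Mbp, the main contributor, had 21.7 and 22.8 CPM in SWAT. Their part in the result for Hhip was not tested.

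Hhip and Gas1 set SWAT apart in opposite directions, and RefSeq (GRCm38.p6) has for both a stretch before the annotated start that lies outside the gene. These are shown 5′ to 3′ on the gene's strand, with CpG dinucleotides in capitals, chr8:80058061-80058258 (minus strand) for Hhip and chr13:60177536-60177785 (minus strand) for Gas1.
Hhip: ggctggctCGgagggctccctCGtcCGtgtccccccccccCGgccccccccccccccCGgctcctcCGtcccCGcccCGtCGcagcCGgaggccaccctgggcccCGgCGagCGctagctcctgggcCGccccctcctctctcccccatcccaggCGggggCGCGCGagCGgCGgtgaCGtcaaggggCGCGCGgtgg
Gas1: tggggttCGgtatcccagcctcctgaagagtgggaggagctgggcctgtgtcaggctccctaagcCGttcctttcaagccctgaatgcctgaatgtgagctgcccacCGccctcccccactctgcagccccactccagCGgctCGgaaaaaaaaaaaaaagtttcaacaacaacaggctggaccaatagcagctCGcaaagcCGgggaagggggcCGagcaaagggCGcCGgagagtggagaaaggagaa
In the 250 bases before the listed start, Hhip has 28 CpG and 76.0% G or C and Gas1 has 10 CpG and 58.8%, beside medians of 6 CpG and 52.4% over 32851 promoters. At least 28 CpG occur in 7.61% of them. For Hhip only 198 of the 250 bases, with 24 CpG, lie outside the annotated gene, and these are the stretch shown. Of the 9 genes, 7 had a promoter in the table (Gli2, Gli3, Hhip, Smo, Cdon, Gas1 and Ptch1), and for Gli2, Gli3, Cdon and Ptch1 the window before the listed start lies wholly inside the annotated gene. The Gli binding motif GACCACCCA (on the other strand TGGGTGGTC) is in 0 of these 7 windows and in 0.225% of all promoters, and the looser GACCNCCCA, which includes it, is in 0 of 7 and 0.868%.

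Ptch1, the receptor that restrains Smo, stood at 15 and 18.6 CPM in SWAT, 14.2 and 11.8 CPM in EWAT and 19.0 and 13.7 CPM in NWAT. The 2 NWAT libraries differed by more than those of the other depots, and NWAT overlapped both SWAT and EWAT. No pair passed, with log2 fold changes of 0.37 ± 0.18 in SWAT against EWAT (edgeR adjusted p = 0.124), -0.33 ± 0.18 in EWAT against NWAT (0.185) and 0.04 ± 0.17 in SWAT against NWAT (0.910; 2 SE interval -0.31 to 0.39), the last of which turned negative without TMM scaling (-0.15), without SWAT replicate 2 (-0.13) and without NWAT replicate 2 (-0.17).

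Smo, the transducer, was nearly level per length, at 26.7 to 27.9 FPKM over the 6 libraries. In TMM-scaled CPM it stood at 115 and 109 in SWAT, 94.5 and 91.7 in EWAT and 97.3 and 93.6 in NWAT. On this scale it was higher in SWAT than in EWAT by a log2 fold change of 0.27 ± 0.10 (edgeR adjusted p = 0.0494), but by 0.03 without TMM scaling and -0.01 on log2(FPKM + 1) values. That call passed in 3 of 16 alternatives and was lost without SWAT replicate 1 (0.23), SWAT replicate 2 (0.30), EWAT replicate 2 (0.26) or either NWAT library (0.27). In SWAT against NWAT it was 0.23 ± 0.10 (0.127), which passed without EWAT replicate 2 (0.24). TMM factors were lower for SWAT (0.893 and 0.919) than for EWAT and NWAT (1.03 to 1.08). Without them the median gene moved by -0.236 in SWAT against EWAT and -0.191 in SWAT against NWAT, and the share of calls that were higher in SWAT went from 49.1% to 20.9% and from 48.0% to 18.9%.

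Gli1, the activator whose transcription depends on the pathway, stood at 6.58 and 11 CPM in SWAT, 8.17 and 9.39 CPM in EWAT and 6.06 and 4.37 CPM in NWAT. Both NWAT libraries were the lowest, and the SWAT libraries lay on either side of EWAT. The log2 fold change was 0.75 ± 0.25 in EWAT against NWAT (edgeR adjusted p = 0.0449) and 0.76 ± 0.25 in SWAT against NWAT (0.0600), and SWAT and EWAT differed by 0.00 ± 0.24 (2 SE interval -0.47 to 0.48). The EWAT call passed in 7 of 16 alternatives and was lost without EWAT replicate 1 (0.85), EWAT replicate 2 (0.64), NWAT replicate 1 (1.01) or NWAT replicate 2 (0.54), while without SWAT replicate 1 the SWAT difference passed (1.08). Gli1 overlaps Arhgap9 and the antisense gene Gm47200 on the other strand, and the strand setting of the counting is not given. Arhgap9 had 1 to 6 counts per library against 90 to 209 for Gli1. Gm47200 was not among the counted symbols, so its reads could not be checked. Gas1 likewise overlaps an uncounted gene on the other strand, Gm48488.

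The 3 pathway targets Gli1, Ptch1 and Hhip did not share one order of depots. Gli1 was lowest in NWAT, Hhip was highest in SWAT, and Ptch1 was undecided. Between the 2 libraries of a depot they went together in SWAT, where replicate 2 had more of each, and in NWAT, where replicate 1 had more of each. In EWAT Gli1 was higher in replicate 2, and Ptch1 and Hhip were higher in replicate 1. These are directions only and were not tested, and for Hhip they rest on 25 against 21 counts in NWAT and 17 against 15 in EWAT.

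Gli2, the main activator protein, stood at 36.2 and 33.3 CPM in SWAT, 28 and 25.5 CPM in EWAT and 32.4 and 36.1 CPM in NWAT. EWAT was below the other 4 libraries. The log2 fold change was 0.38 ± 0.11 in SWAT against EWAT (edgeR adjusted p = 0.0198), -0.36 ± 0.11 in EWAT against NWAT (0.0321) and 0.02 ± 0.11 in SWAT against NWAT (0.919), the last turning to -0.17 without TMM scaling, to -0.04 without SWAT replicate 1 and to -0.05 without NWAT replicate 1. The first passed in 9 of 16 alternatives, and was lost without TMM scaling (0.14) and without SWAT replicate 1 (0.32), SWAT replicate 2 (0.44) or EWAT replicate 2 (0.32). The second passed in 6 of 16 and was lost in DESeq2 (-0.36, adjusted p = 0.0840), and also without SWAT replicate 1 (-0.35), SWAT replicate 2 (-0.35), EWAT replicate 2 (-0.29), NWAT replicate 1 (-0.43) or NWAT replicate 2 (-0.28).

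Gli3, whose processed form is the main repressor, stood at 83.5 and 84.6 CPM in SWAT, 94.0 and 68.1 CPM in EWAT and 94.5 and 94.3 CPM in NWAT. The spread within EWAT was larger than the distance between the depot means. No pair passed, with log2 fold changes of 0.05 ± 0.14, -0.17 ± 0.14 and -0.22 ± 0.14 in SWAT against EWAT, SWAT against NWAT and EWAT against NWAT (edgeR adjusted p = 0.786, 0.450 and 0.252). The first turned negative without TMM scaling (-0.18) and without EWAT replicate 2 (-0.15). Without EWAT replicate 1 the differences from EWAT passed, at 0.30 and -0.47. Per length Gli3 held 64.1% ± 0.171 of the summed Gli FPKM in NWAT, 63.0% ± 3.85 in EWAT and 57.6% ± 1.83 in SWAT (each SD over n = 2). Gli1 held 7.85% ± 1.84, 13.9% ± 2.74 and 13.3% ± 4.41 in that order, and Gli2 the rest.

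A further 66 pathway genes were listed by role, of which 59 had enough counts. In SWAT against EWAT 10 were higher and 13 lower (39.0% past the threshold, near the 36.7% of all genes). In SWAT against NWAT 8 were higher and 11 lower (32.2%, against 18.9%), and in EWAT against NWAT 11 were higher and 8 lower (32.2%, against 27.3%). Of 12 Gli-processing genes 3, 0 and 2 passed in these pairs, and of 11 Smo regulators 3, 1 and 2, with no test of one role against another.

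Gpc3, a membrane glypican that competes with Ptch1 for ligand, stood at 194 and 206 CPM in SWAT, 484 and 455 CPM in EWAT and 785 and 805 CPM in NWAT, and was lower in SWAT than in NWAT by 1.99 ± 0.11 (log2 fold change -1.99, edgeR adjusted p = 4.97e-07). The Gli inhibitor Sufu, with 29.8 to 39.6 CPM, and the ciliary kinesin Kif7, with 10.1 to 12.8 CPM, passed in none of the pairs. Disp2, a relative of the ligand exporter Disp1, had 26 counts over both EWAT libraries, 4 in SWAT and 2 in NWAT, a ratio of 12.4 (95% counting interval 3.10 to 108) between EWAT and NWAT and 5.54 (1.92 to 21.8) between EWAT and SWAT.

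Of 16 tested genes known to respond to Hedgehog in mesenchyme, 2 were higher and 7 lower in SWAT than in EWAT, where 18.0% and 18.7% of all genes were. Against NWAT 5 were higher and 7 lower in SWAT (9.07% and 9.83% of all genes), and in EWAT against NWAT 5 were higher and 2 lower (13.3% and 14.0%). Osr2, an odd-skipped zinc finger factor, stood at 245 and 160 CPM in SWAT and 16.9 to 21.3 CPM elsewhere (3.35 ± 0.21 against EWAT, edgeR adjusted p = 2.25e-06). Foxf1, a forkhead gene, had 17 counts over both SWAT libraries, 87 over both EWAT and 80 over both NWAT libraries, 4.36-fold (95% counting interval 2.57 to 7.82) and 4.21-fold (2.47 to 7.58) higher than in SWAT. Foxd2 had 25 counts over both EWAT libraries and 23 over both NWAT libraries against 3 in SWAT, ratios of 7.10 (2.17 to 36.7) and 6.86 (2.07 to 35.7). Foxd1 had 51 counts in NWAT against 1 in SWAT and 3 in EWAT, ratios of 45.6 (7.83 to 1840) and 17.9 (5.78 to 89.5). Foxd1 met the count filter only through NWAT, Disp2 only through EWAT, and Foxd2 only through EWAT and NWAT, so each could enter only as higher there.

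The remaining named genes of this group were more abundant. Sfrp1, a secreted Wnt inhibitor, stood at 80.3 and 95.1 CPM in SWAT, 429 and 452 CPM in EWAT and 208 and 215 CPM in NWAT (-2.33 ± 0.12 in SWAT against EWAT, edgeR adjusted p = 5.81e-08). The cell-cycle gene Ccnd1 was lowest in EWAT, with 11.7 and 13.8 CPM against 25.0 to 52.1 CPM elsewhere (-1.07 ± 0.14 in EWAT against NWAT, 1.50e-04). The nuclear receptor gene Nr2f2 (1.41 ± 0.11, 2.89e-06) and Snai1, a repressor of epithelial genes (1.13 ± 0.15, 2.19e-04), were higher in EWAT than in NWAT. These genes have other regulators too.

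**Figure D4:**
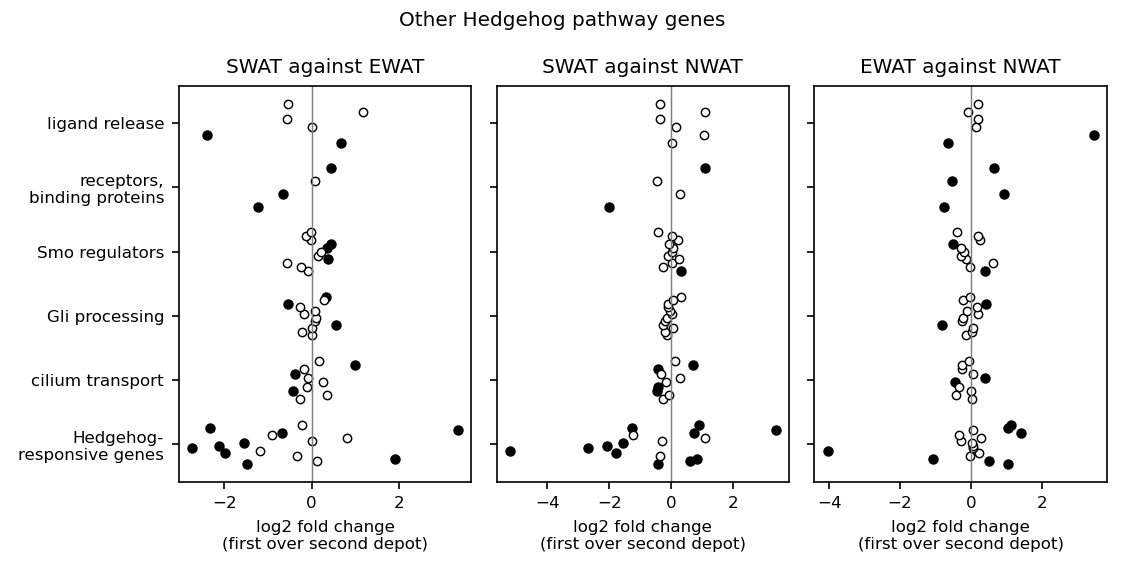
Log2 fold changes (x axis, first depot over second) of the 59 other pathway genes that were tested, by role, with filled points for an edgeR adjusted p under 0.05. In SWAT against NWAT 12 of 16 Hedgehog-responsive genes and 0 of 12 Gli-processing genes have filled points, beside 18.9% of all genes. In SWAT against EWAT 56.2% and 25.0% of these roles do (36.7% of all genes). In EWAT against NWAT 43.8% and 16.7% do (27.3%). Some of the Hedgehog-responsive genes met the count filter only outside SWAT, and roles were not tested against each other.

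The genes whose pattern over the 6 libraries was most like that of Gli1, by the root mean square difference of centred log2 CPM among 10523 genes, were Map7d3 (0.120), Raver2 (0.127), the receptor gene Notch1 (0.135), the clock gene Per3 (0.167) and LOC100041599 (0.174). For Ptch1 they were the cholesterol exporter gene Abca1 (0.0568), Prickle2 (0.0844), Zfp974 (0.0914) and Ints7 (0.0925). For Hhip they were the glypican gene Gpc1 (0.172), the collagen VI gene Col6a3 (0.240), Emx2 (0.295), Notch3 (0.299) and the Wnt co-receptor gene Lrp5 (0.306). Likeness over 3 depots with 2 libraries each is a description only.

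The sorted cells carried the markers of their label. All 9 adipose stem cell markers were detected in each depot and summed to 41500 and 44400 CPM in SWAT and 21200 to 25900 CPM in the other depots, with Col1a1 the most unequal of them (29900 and 26600 CPM in SWAT, 3760 to 6630 CPM elsewhere). Among the others were Pdgfra at 936 to 1440 CPM and Cd34 at 1230 to 1670 CPM. Macrophage markers summed to 12.6 to 33.7 CPM per library and were highest in EWAT (30.5 and 33.7 CPM), and mesothelial markers summed to 3.51 to 12.2 CPM. NWAT replicate 2 stood apart in erythroid transcripts, with 158 CPM against 4.99 to 14.6 CPM in the other 5 libraries, and its omission is among the values above. On GRCm38.p6 the 9 protein-coding genes lie on chromosome 10 (Gli1, 127329882 to 127341579), 1 (Gli2, 118834061 to 119054405), 13 (Gli3, 15463723 to 15730026; Gas1, 60174405 to 60177535; Ptch1, 63508328 to 63573460), 6 (Smo, 29735497 to 29761366), 8 (Hhip, 79965850 to 80058060), 16 (Boc, 44485045 to 44558870) and 9 (Cdon, 35421528 to 35507652).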

How the data were processed

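The authors deposited 1 table by gene symbol whose columns are read counts per the file headers, taken here as estimated counts because 31.7% to 33.1% of each library's values are not whole. They also deposited FPKM, reads scaled to gene length and library depth, named so per the file headers. The build GRCm38.p6 and the tools Cell Ranger and Seurat are listed in the submitters' processing notes, while the aligner, counting program, annotation and strand setting are not named in the sources used here. Columns were matched to samples by depot letter and replicate number, and 2 columns per table that match no label were not used. Counts were rounded, scaled by TMM and filtered with filterByExpr (count minimum 10, total minimum 15), leaving 13694 genes, and tested in edgeR 4.0.16 (R 4.3.3) with a robust quasi-likelihood fit of 1 coefficient per depot over 6 libraries (3 residual degrees of freedom), adjusted over all genes within each contrast. Standard errors are the absolute log2 fold change over the square root of F. The script was tested on simulated data. Alternatives used DESeq2 1.42.0, limma 3.58.1 on log2 FPKM, other scalings and filters, the replicate number as a block, and omission of each library. Members and gene lists were chosen with earlier results of these data known. Besides the 9 members, the text names the ligands, Sufu, Kif7 and, per pair of depots, the 5 listed pathway genes past the threshold with the largest change, and the 5 genes most like Gli1, Ptch1 and Hhip whose mean log2 CPM was no lower than 2. A few genes that these rules name are not reported here. Counting intervals are exact binomial and, like floors, cover counting error only. The symbols and promoters come from RefSeq.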

Additional observations from a re-analysis of the deposited data

How the results depend on the processing

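Of 563 values of single genes under the alternatives, 436 kept their direction and side of the threshold, 84 no longer passed, 8 newly passed and 35 changed sign. For the joint test, which has no direction, only the side of the threshold was compared. The calls of Boc and Hhip that involve EWAT and SWAT respectively, and that of Cdon in EWAT against NWAT, passed in each alternative that gave a value (the stricter filter, a mean count of 50, removed Hhip). Without TMM scaling 3 of the 9 genes passed in SWAT against EWAT, and over all genes 3946 passed in SWAT against NWAT. Signs changed there for Gli1 (-0.23) and Gli3 (-0.18) in SWAT against EWAT, Gli2 (-0.17) and Ptch1 (-0.15) in SWAT against NWAT, and Smo (0.01) and Gas1 (0.03) in EWAT against NWAT. On log2(FPKM + 1), filtered or not, 3 genes passed in SWAT against EWAT and 2 in EWAT against NWAT, the same numbers as on log2(FPKM + 0.1). On both scales signs changed for Gli1 (-0.18; -0.26 with 0.1), Gli3 (-0.29; -0.31) and Smo (-0.01; -0.01) in SWAT against EWAT, Gli2 (-0.13; -0.15) and Ptch1 (-0.08; -0.11) in SWAT against NWAT, and Smo (0.03) and Gas1 (0.03) in EWAT against NWAT. The cause was not tested, beyond the shift of all genes given above. DESeq2 called 2 genes in EWAT against NWAT, and a fit of only the 2 depots called 3 in SWAT against EWAT. Leaving out 1 library gave 3085 to 5672 genes in SWAT against EWAT, 1467 to 3323 in SWAT against NWAT, 2129 to 4884 in EWAT against NWAT and 4084 to 6882 in the joint test, and 2 to 7, 1 to 5, 2 to 4 and 3 to 7 of the 9 members. Signs changed without 1 library for Gli1 in SWAT against EWAT (range -0.41 to 0.33), Gli3 there (-0.15 to 0.30), and Gli2 (-0.05 to 0.10) and Ptch1 (-0.17 to 0.29) in SWAT against NWAT. A lone remaining library was assumed to vary like the other depots. With the replicate block, 5043 genes passed in SWAT against EWAT, 2595 in SWAT against NWAT, 3793 in EWAT against NWAT and 5743 in the joint test. It gave 5, 4, 4 and 5 of the 9 members. It ended the calls of Smo in SWAT against EWAT (0.27, adjusted p = 0.0568) and of Gli1 in the joint test, and turned Gli1 in SWAT against EWAT to -0.01. The labels do not say what the replicate number marks. Deviations of same-numbered libraries correlated at 0, 0.04 and 0.11, which cannot show whether they share a mouse or a batch. Low counts limit Hhip and the ligands.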
